A study of Mus musculus with 5 samples.

Results

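Liver RNA of mice that stayed on a high-fat, high-fructose (HFHFr) diet and received all-trans retinoic acid was set against liver RNA of mice taken off that diet without retinoic acid. The comparison takes 2 of the 5 arrays of the series, the array titled HFHFr-FA over the array titled HFHFr-N, chosen by their titles. All mice were male C57BL/6J, a common inbred strain, 25 weeks old. HFHFr-FA mice ate the HFHFr diet for 16 weeks and then the same diet supplemented with all-trans retinoic acid for 4 weeks. HFHFr-N mice ate the HFHFr diet for 16 weeks and then a normal diet for 4 weeks. The other 3 arrays, given beside these where they help to place a gene, are HFHFr-NA (16 weeks of HFHFr diet, then 4 weeks in which retinoic acid was added to a normal diet), HFHFr-F (20 weeks of HFHFr diet) and an untreated control. Per the labels, insulin resistance was absent in HFHFr-FA mice, whose steatosis was slight, whereas HFHFr-N mice were insulin resistant. HFHFr-NA mice had recovered from insulin resistance, and HFHFr-F mice had severe insulin resistance. Each array held RNA pooled from 5 mice, so the comparison has no replicates, and no test or standard deviation between groups was possible. "Higher" and "lower" therefore describe these 2 pools.

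The pools differ in the diet of the last 4 weeks and in retinoic acid at the same time, so the share of each cannot be told apart in this pair. The 2 arrays also lay on different slides: HFHFr-FA was alone on slide 2, and the other 4 arrays shared slide 1, and slide cannot be told apart from group either. Fewer cells of a type and less RNA per cell of that type cannot be told apart in bulk liver. All 11 measured hepatocyte markers, the check of the labelled tissue, were well above background on both arrays. Of 43379 non-control spots, 49.4% were well above background on HFHFr-FA and 48.4% on HFHFr-N. The number of arrays limits the precision, and the median standard deviation of the log2 signal over 10 spots of the same probe was 0.0704 on HFHFr-FA and 0.0770 on HFHFr-N. Signal is given below as a multiple of the 75th percentile of its own array, and a log2 ratio is HFHFr-FA over HFHFr-N.

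Vitamin A acts on genes as all-trans retinoic acid. This acid binds retinoic acid receptors, nuclear receptors that sit on paired short DNA repeats near their target genes, and it induces the cytochrome P450 enzymes of the Cyp26 family, which break it down. A liver fed fat and fructose stores triglyceride, makes fatty acids under the control of insulin, SREBP-1c and other lipogenic factors, and draws in macrophages. A normal diet after such feeding removes the dietary fat and sugar, and with them much of the drive to store lipid.

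The start regions of 3 retinoid genes are shown because retinoic acid was given to one pool and not to the other. They are the 300 bases from 250 before to 50 after each gene's start, from RefSeq (GRCm38.p6), 5′ to 3′ on the gene's strand: chr19:37697558-37697857 on the plus strand for Cyp26a1, chr14:16575427-16575726 on the minus strand for Rarb and chr6:84593761-84594060 on the minus strand for Cyp26b1. Capitals mark a retinoic acid response element, searched on both strands as 2 copies of a short repeat (AGGTCA and close forms of it) in the same direction with any 5 bases between them.
Cyp26a1: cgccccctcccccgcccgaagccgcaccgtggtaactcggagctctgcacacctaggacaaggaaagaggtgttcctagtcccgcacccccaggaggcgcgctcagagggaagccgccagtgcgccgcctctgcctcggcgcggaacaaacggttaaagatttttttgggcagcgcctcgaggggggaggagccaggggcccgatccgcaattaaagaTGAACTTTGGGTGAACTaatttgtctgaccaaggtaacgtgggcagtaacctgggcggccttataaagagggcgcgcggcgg
Rarb: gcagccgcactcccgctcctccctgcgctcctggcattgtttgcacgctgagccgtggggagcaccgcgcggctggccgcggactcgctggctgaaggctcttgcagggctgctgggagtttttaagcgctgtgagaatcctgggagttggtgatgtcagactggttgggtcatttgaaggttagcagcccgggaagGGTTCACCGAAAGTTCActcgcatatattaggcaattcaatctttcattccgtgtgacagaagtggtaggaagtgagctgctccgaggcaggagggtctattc
Cyp26b1: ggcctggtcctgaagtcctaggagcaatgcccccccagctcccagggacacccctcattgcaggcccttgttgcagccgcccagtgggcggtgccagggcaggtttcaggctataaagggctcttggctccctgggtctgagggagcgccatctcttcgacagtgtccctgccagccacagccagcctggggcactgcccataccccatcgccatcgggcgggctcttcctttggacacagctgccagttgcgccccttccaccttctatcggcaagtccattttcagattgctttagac
The element was found once in the Cyp26a1 window, on the other strand and starting 32 bases before the gene's start, and once in the Rarb window, starting 53 bases before the start. It was not found in the Cyp26b1 window, which says only that these letters are not in these 300 bases. Of 32851 windows of this length, 32 (0.0974%) held it. Of 14 genes matched from the list of retinoic acid clearance and direct targets, 10 had a window and 2 of these, Cyp26a1 and Rarb, held the element. A listed gene counted if any of its windows held it, so the share over single windows is not a like measure.

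Retinoic acid genes did not differ in one direction. Cyp26b1, which degrades retinoic acid, had a signal of 7.46 in HFHFr-FA and 1.29 in HFHFr-N, a log2 ratio of 2.54 (5.80-fold). The other arrays had 10.7 (HFHFr-NA), 1.71 (HFHFr-F) and 1.90 (control), so both arrays of retinoic acid-fed mice lay above the 3 without it. Cyp26a1, the other main retinoic acid hydroxylase of liver, had 0.596 in HFHFr-FA and 1.46 in HFHFr-N, a log2 ratio of -1.29. HFHFr-NA had 3.84, HFHFr-F 0.276 and control 1.53, so that HFHFr-FA lay above HFHFr-F and below the control and HFHFr-N arrays. The Cyp26a1 probe (chr19:37775566-37775625, mm9, plus strand) reads as follows, and is shown because the 2 clearance enzymes differed in direction.
Cyp26a1 probe: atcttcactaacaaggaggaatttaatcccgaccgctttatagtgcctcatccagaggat

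Rarb, a retinoic acid receptor that is also a target gene, had 1.27 in HFHFr-FA and 1.04 in HFHFr-N, a log2 ratio of 0.28, with HFHFr-NA at 2.38, HFHFr-F at 1.34 and control at 0.801. Of the 10 measured genes of the list of retinoic acid clearance and direct targets 2 were at least 2-fold higher and 1 lower, with a median log2 ratio of 0.18, against -0.07 over all genes. Without a detection filter the median of this list was -0.08. Of all 14971 measured genes, 3.69% were higher and 2.44% lower by 2-fold or more. In the list of retinol storage, binding and dehydrogenase genes 1 of 23 was higher and 0 lower, with a median of -0.23. The higher one was Aldh1a3, an enzyme that makes retinoic acid, at 0.220 in HFHFr-FA and 0.109 in HFHFr-N. The latter lay near the lowest measured signal of that array, 0.0775. The log2 ratio of Aldh1a3 was 1.01 and fell as low as 0.25 under other processing. Lrat, which stores retinol as ester in stellate cells, had a log2 ratio of 0.60 by one probe and 0.24 by the other.

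**Figure D1:**
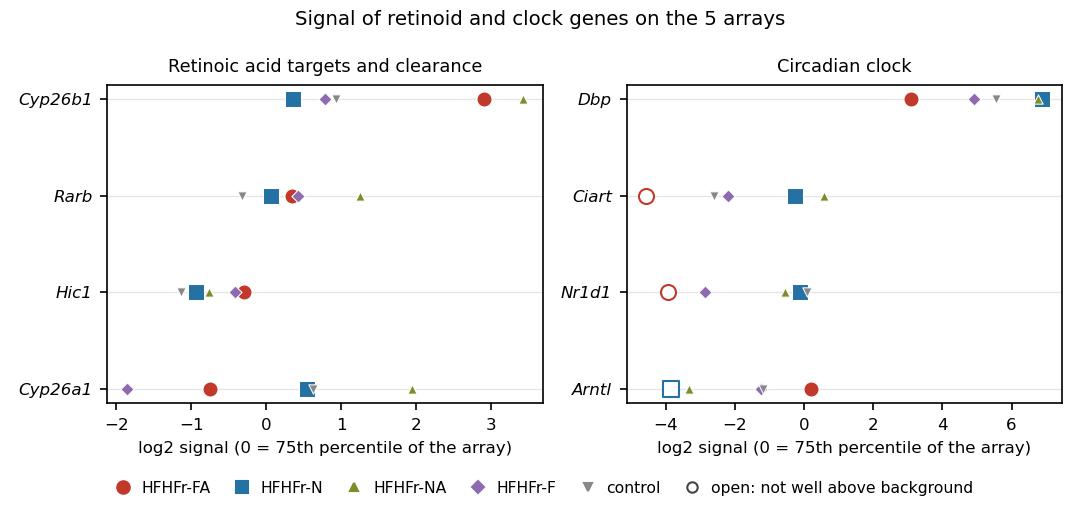
Signal of 4 retinoid genes (left) and 4 clock genes (right) on the 5 arrays, as log2 of the multiple of each array's 75th percentile, 1 point per array and open where the probe was not well above background. Cyp26b1 is high on the HFHFr-FA and HFHFr-NA arrays, Cyp26a1 on HFHFr-NA alone, and the 4 clock genes have HFHFr-FA at one end of their range.

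In all, 552 of the 14971 genes (3.69%) reached 2-fold in the direction of HFHFr-FA and 365 (2.44%) in the direction of HFHFr-N, together 6.13%. At 4-fold the counts were 53 higher and 41 lower, and at 8-fold they were 9 higher and 8 lower. Of the measured genes, 13796 were well above background on both arrays. A further 722 were so on HFHFr-FA alone and 453 on HFHFr-N alone. For those the ratio is a bound, written as "at least". Cdkn1a, the cell cycle inhibitor p21, led the genes that both arrays measured, with a log2 ratio of 4.45 (21.8-fold), followed by Igfbp1 at 4.12 and Pdk4 at 3.89. Dbp, a transcription factor driven by the circadian clock, was at the other end at -3.79 (13.8-fold), and 4 members of the Cyp3a subfamily were among the 12 lowest. Some of the lowest ratios are doubtful. On HFHFr-N, Zfp101 (log2 ratio -3.43), Exoc6b (-2.16) and Olfr1387 (at least 18.6-fold lower) had signals of 1.40, 1.43 and 1.41, and their spots lay beside other spots that stood out on that array alone. Leaving out genes with such spots on either array left 531 higher and 333 lower.

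**Figure D2:**
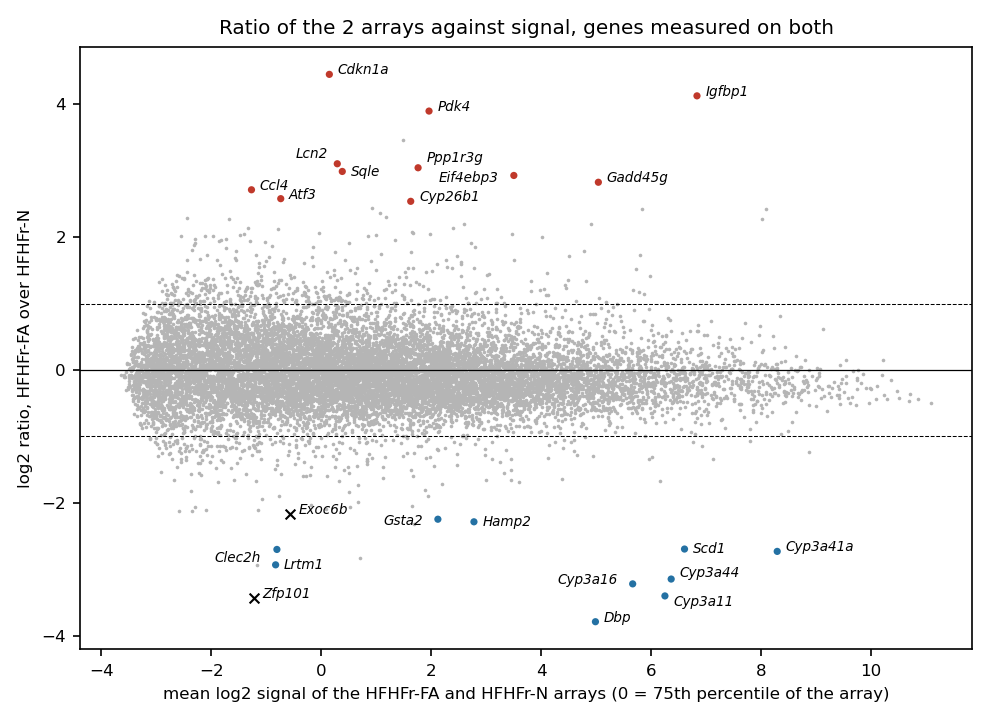
Log2 ratio of HFHFr-FA over HFHFr-N against the mean log2 signal of the 2 arrays for the 13796 genes measured on both, with dashed lines at 2-fold. Named points are from the 12 highest (red) and the 12 lowest (blue) ratios. Crosses mark Zfp101 and Exoc6b, whose spots lie beside other bright spots on the HFHFr-N array.

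Genes of the circadian clock were strongly apart, in both directions. The clock is a feedback loop in which CLOCK and ARNTL drive Dbp, Nr1d1 and other genes through E-boxes, and NR1D1 in turn represses Arntl. Dbp had a signal of 8.56 in HFHFr-FA and 118 in HFHFr-N, with HFHFr-NA at 108, HFHFr-F at 30.1 and control at 46.4. Nr1d1, the repressor REV-ERB alpha, was measured in HFHFr-N at 0.925 and was not well above background in HFHFr-FA, at least 12.3-fold lower. Ciart, a repressor of the CLOCK and ARNTL complex, was at least 11.0-fold lower, with 0.827 in HFHFr-N and a signal not well above background in HFHFr-FA. Arntl ran the other way, with 1.14 in HFHFr-FA and a signal not well above background in HFHFr-N, at least 14.7-fold higher. HFHFr-FA thus had the lowest signal of the 5 arrays for Dbp, Nr1d1 and Ciart and the highest for Arntl. The 2 other measured probes of Nr1d1 gave bounds in the same direction of -0.65 and -0.46. With quantile normalization after normexp background correction the bounds were 1.85 for Arntl, -1.54 for Nr1d1 and -1.52 for Ciart.

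The start regions of Arntl (chr7:113207261-113207560, plus strand, 1 of its 2 listed starts) and Ciart (chr3:95882179-95882478, minus strand), from the same table, are shown because these genes carry the opposite directions. Capitals mark a ROR response element in Arntl, the element bound by ROR activators and REV-ERB repressors, and E-boxes (CACGTG) in Ciart.
Arntl: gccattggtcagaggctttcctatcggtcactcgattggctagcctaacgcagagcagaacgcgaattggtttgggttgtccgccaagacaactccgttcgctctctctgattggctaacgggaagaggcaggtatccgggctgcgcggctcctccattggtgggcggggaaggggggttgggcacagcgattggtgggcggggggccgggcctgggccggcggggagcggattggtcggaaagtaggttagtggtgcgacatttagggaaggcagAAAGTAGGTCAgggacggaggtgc
Ciart: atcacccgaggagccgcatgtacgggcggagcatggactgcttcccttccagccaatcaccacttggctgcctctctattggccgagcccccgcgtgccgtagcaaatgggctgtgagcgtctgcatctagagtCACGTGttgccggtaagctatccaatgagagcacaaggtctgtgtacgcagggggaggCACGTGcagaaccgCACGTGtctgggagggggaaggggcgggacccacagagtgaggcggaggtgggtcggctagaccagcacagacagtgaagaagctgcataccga
The ROR element starts 26 bases after the Arntl start and was found in 0.384% of all windows. Where a gene had several listed starts, here and for the retinoid genes, a window that held the element was preferred. The share over single windows is therefore not a like measure for Arntl. Nor is it for the counts of listed genes, where any window of a gene could hold the element. The E-boxes of Ciart start 116, 58 and 44 bases before the gene's start, and 7.15% of windows held at least 1 E-box. Of 18 clock genes with a window, 5 held an E-box (Bhlhe41, Ciart, Cry1, Per1 and Tef) and 1 held the ROR element.

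Of 18 measured clock genes 4 were higher and 5 lower. Besides those named, among others, Usp2 (log2 ratio -2.06) and Nr1d2 (-1.60) were lower, and Nfil3 (1.41) and Cry1 (at least 2.45-fold higher) were higher. These 4, and Per1 and Per2, were chosen after their values were seen. Per1, a negative limb gene of the loop, had a log2 ratio of 0.14 and Per2 -0.45. The time of day at which livers were collected is not given in the labels, and its part in these differences was not tested.

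Several single genes of insulin response and fuel use differed widely, while the lists that hold them had medians near 0. Igfbp1 (chr11:7102442-7102501, mm9), a secreted binder of insulin-like growth factors that insulin represses, had a signal of 477 in HFHFr-FA and 27.4 in HFHFr-N, a 17.4-fold difference. The other arrays had 87.6 (HFHFr-NA), 97.4 (HFHFr-F) and 76.7 (control), so HFHFr-FA was the highest array and HFHFr-N the lowest. Pdk4, which restrains glucose oxidation by inhibiting pyruvate dehydrogenase, had 15.0 in HFHFr-FA and 1.01 in HFHFr-N, with HFHFr-NA at 1.36, HFHFr-F at 5.05 and control at 2.47. Fgf21, a hormone that the liver secretes in fasting and stress, had 13.1 in HFHFr-FA and 2.84 in HFHFr-N (log2 ratio 2.20; a second probe gave 2.29). For Pdk4 and Fgf21, too, HFHFr-FA was the highest of the 5 arrays and HFHFr-N the lowest. G6pc, the catalytic subunit of glucose-6-phosphatase, had 82.5 in HFHFr-FA and 36.4 in HFHFr-N. Ppp1r3g, a glycogen-targeting subunit of protein phosphatase 1, had 9.75 in HFHFr-FA and 1.18 in HFHFr-N (8.23-fold). Ugp2, which makes UDP-glucose for glycogen, was lower, with 16.0 in HFHFr-FA and 37.3 in HFHFr-N, and its second probe gave a log2 ratio of -1.31 against -1.22.

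These single genes stood out from lists that otherwise differed little. Among 22 gluconeogenesis and glycogen genes 2 were higher and 1 lower (median -0.18), and among 21 glycolysis and fructose entry genes 0 reached 2-fold either way. Of 30 PPARA target, fatty acid oxidation and ketogenesis genes 2 were higher, Pdk4 and Fgf21, and 0 lower, with a median of -0.01. Cpt1a, which admits fatty acids to mitochondria, had 89.9 in HFHFr-FA and 79.5 in HFHFr-N. Among 21 genes of the insulin and IGF axis 2 were higher and 1 lower. The second higher one was Egfr, the epidermal growth factor receptor, with 45.2 in HFHFr-FA, 17.8 in HFHFr-N and 63.6 in control. Its log2 ratio was 1.34, and its other probes measured on both arrays gave 0.86, 0.87, 0.83 and 1.53. The lower one was Pik3r1, the regulatory subunit of phosphoinositide 3-kinase, with 0.847 in HFHFr-FA and 2.33 in HFHFr-N, and its 3 other probes measured on both arrays gave log2 ratios from -1.11 to -0.85. Igf1 differed little, at 123 in HFHFr-FA and 134 in HFHFr-N, and Igfbp2, another binder of insulin-like growth factors, had 149.8 in HFHFr-FA and 104 in HFHFr-N.

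Lepr, the leptin receptor, was measured in HFHFr-FA at 0.226 and was not well above background in HFHFr-N, at least 2.92-fold higher. HFHFr-F did not measure it either, while HFHFr-NA had 0.126 and control 0.143. Of the 15 measured genes of leptin receptor, STAT3 and SOCS signalling 4 were higher and 0 lower (median 0.42.) The others were the cytokine signalling inhibitors Socs2 (3.29 in HFHFr-FA, 1.06 in HFHFr-N), Socs3 (5.90 and 2.53 in the same order) and Cish (4.11 and 1.97). A second Socs2 probe gave a bound of 0.48. With quantile normalization after normexp the Lepr bound was 0.49.

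Fatty acid synthesis did not differ as a block. Scd1 (chr19:44469387-44469446, mm9), the stearoyl-CoA desaturase that makes monounsaturated fatty acids, had a signal of 38.4 in HFHFr-FA and 249 in HFHFr-N, a log2 ratio of -2.69. HFHFr-NA had 49.7, HFHFr-F 313 and control 214, so the 2 arrays of mice given retinoic acid were the low ones. Srebf1, the gene of SREBP-1c, had 19.6 in HFHFr-FA and 39.4 in HFHFr-N (log2 ratio -1.01). Elovl3, an elongase of very long chain fatty acids, was higher, with 51.3 in HFHFr-FA and 14.9 in HFHFr-N. So were Acacb, whose product malonyl-CoA restrains fatty acid oxidation (11.7 in HFHFr-FA, 4.05 in HFHFr-N), and Lpin1, a phosphatidate phosphatase (11.9 in HFHFr-FA, 5.10 in HFHFr-N). Fasn, the fatty acid synthase, had a log2 ratio of 0.58 by one probe and 1.26 by the other, and Thrsp, a regulator of lipogenesis, had -0.41. In total 3 of 27 genes lay 2-fold higher and 2 lay 2-fold lower, and the median was -0.17.

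Part of the sterol synthesis genes were higher. Of 26 measured genes of cholesterol synthesis and uptake 7 were higher and 0 lower, and their median log2 ratio was 0.60, with 19 above 0 and 7 below 0. Sqle, squalene epoxidase, had 3.68 in HFHFr-FA and 0.464 in HFHFr-N (7.92-fold), with HFHFr-NA at 1.19, HFHFr-F at 4.03 and control at 0.789. Idi1, isopentenyl diphosphate isomerase, had 10.3 in HFHFr-FA and 3.33 in HFHFr-N, and Fdps, farnesyl diphosphate synthase, 3.67 in HFHFr-FA and 1.51 in HFHFr-N. In all 3 of these the HFHFr-FA and HFHFr-F arrays were the 2 high ones. Insig2, which holds the SREBP complex in the endoplasmic reticulum, had 104 in HFHFr-FA and 39.0 in HFHFr-N, and both its probes gave a log2 ratio of 1.41. Over the whole list the median was -0.37 in HFHFr-FA over HFHFr-F, 0.40 in HFHFr-FA over control and -0.19 in HFHFr-N over control. These pairs share arrays and are given side by side as values.

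Among 24 lipid droplet and PPARG-linked genes 0 were higher and 1 lower. The lower one was Vldlr, a lipoprotein receptor, with a log2 ratio of -1.57. A pair of lipid droplet proteins of one family leaned opposite ways without reaching 2-fold: Cidec had 71.3 in HFHFr-FA and 38.0 in HFHFr-N, and Cidea 29.5 in HFHFr-FA and 56.5 in HFHFr-N. Pparg, the nuclear receptor of fat storage, had 5.27 in HFHFr-FA and 8.46 in HFHFr-N. In cholesterol export and lipoproteins, Apoa4, an apolipoprotein of triglyceride-rich particles, was the higher one of 23 (35.9 in HFHFr-FA, 14.0 in HFHFr-N), and Sort1, a sorting receptor, was the lower one at -2.12, where a second probe measured on both arrays gave -0.76 and 2 more gave bounds of -1.78 and -1.88.

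Bile acid genes leaned slightly lower, with 0 of 23 higher and 3 lower. Their median was -0.21, against -0.07 over all genes, and lay between -0.23 and -0.09 over the processing settings. Cyp7a1, which catalyses the first and limiting step from cholesterol to bile acids, had 2.51 in HFHFr-FA and 6.80 in HFHFr-N, with 9.90 in HFHFr-F and 4.78 in control, and its second probe gave -0.83 against -1.44. Nr0b2, the repressor SHP, had 0.957 in HFHFr-FA and 2.16 in HFHFr-N. The organic anion transporter Slco1a4 had 1.25 in HFHFr-FA and 3.83 in HFHFr-N. Cyp8b1, which makes cholic acid, leaned the other way at 0.95.

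Xenobiotic metabolism held the lowest list medians of the comparison. Cytochromes P450 of families 1 to 3 oxidise drugs, steroids and pollutants, and glutathione transferases and UDP-glucuronosyltransferases then conjugate the products. Of 30 measured P450 genes 0 were higher and 8 lower (median -0.67), and of 37 phase II and NRF2 target genes 2 were higher and 15 lower (median -0.72). Cyp3a11, the main drug-metabolising P450 of mouse liver, had a signal of 23.5 in HFHFr-FA and 248 in HFHFr-N (log2 ratio -3.40). The other arrays had 107 (HFHFr-NA), 85.0 (HFHFr-F) and 276 (control), so HFHFr-FA was the lowest and HFHFr-N lay close to control. Its relatives ran alike: Cyp3a16 had 16.7 in HFHFr-FA and 155 in HFHFr-N, Cyp3a44 27.8 in HFHFr-FA and 246 in HFHFr-N, and Cyp3a41a 122 in HFHFr-FA and 809.7 in HFHFr-N. These genes are close relatives on chromosome 5, and signal shared between them was not separated. The Cyp3a11 probe (chr5:146672058-146673925 on mm9, minus strand, a span far longer than the probe) is shown because this gene leads the list.
Cyp3a11 probe: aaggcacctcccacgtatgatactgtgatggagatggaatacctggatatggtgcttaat

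Gsta2, a glutathione transferase, had a log2 ratio of -2.24, and HFHFr-FA over HFHFr-F gave -2.75. Its signal was 2.63 in HFHFr-NA, against 9.49 in HFHFr-N, so the 2 arrays of mice given retinoic acid were low. Gstm2 had 6.52 in HFHFr-FA and 18.5 in HFHFr-N. Ugt2b1, a glucuronosyltransferase, had 6.20 in HFHFr-FA and 19.5 in HFHFr-N, and its relative Ugt2b38 had 39.0 in HFHFr-FA and 98.9 in HFHFr-N. The Gstm and Ugt2b genes are also families of close relatives. The phase II list had a median of -0.47 in HFHFr-NA over HFHFr-N, -0.51 in HFHFr-FA over HFHFr-F and 0.04 in HFHFr-N over control, and these pairs share arrays.

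**Figure D3:**
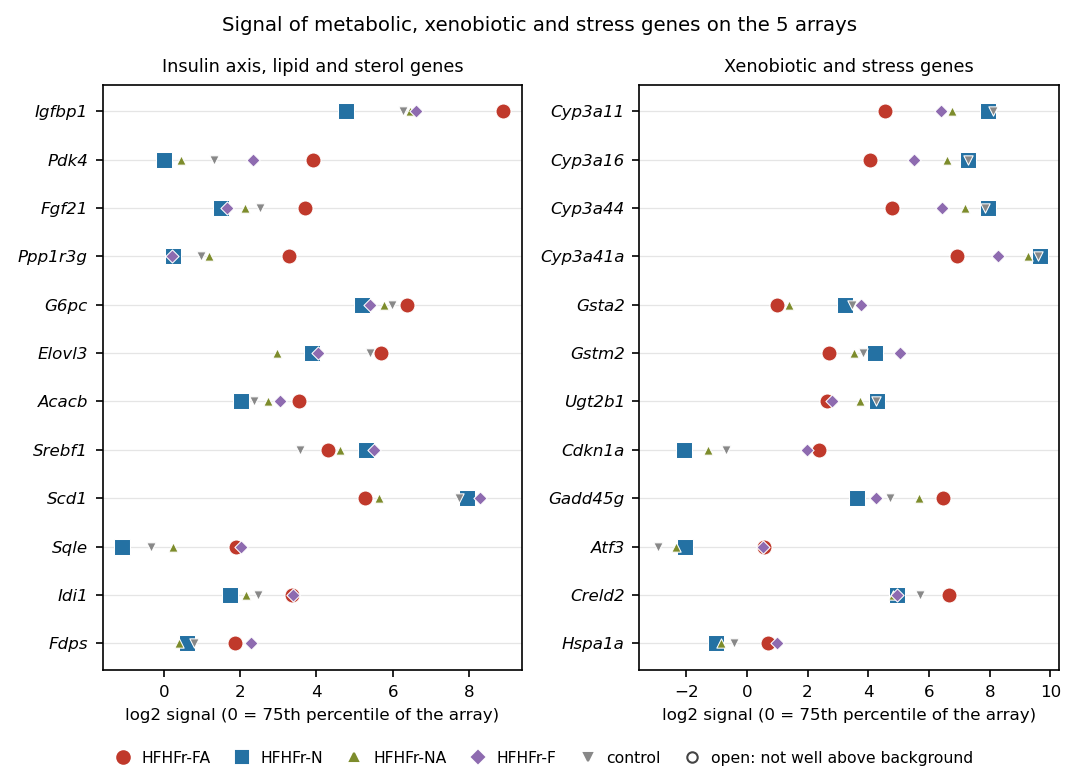
Signal of genes of the insulin axis, fatty acid and sterol synthesis (left) and of xenobiotic metabolism and stress (right) on the 5 arrays, as log2 of the multiple of each array's 75th percentile. HFHFr-FA is right of HFHFr-N for Igfbp1, Pdk4, Sqle and Cdkn1a and left of it for Scd1, Gsta2 and the 4 Cyp3a genes.

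Genes of sex-biased liver expression overlap with these lists. Of 23 measured female-biased genes 2 were higher and 7 lower, and 3 of the 7 were Cyp3a16, Cyp3a44 and Cyp3a41a. Hamp2, a relative of hepcidin, had 3.11 in HFHFr-FA and 15.2 in HFHFr-N, while Hamp, the iron hormone hepcidin itself, had 186 in HFHFr-FA and 153 in HFHFr-N. Cyp2b9 and Cyp2b13, female-biased P450 genes and close relatives, had log2 ratios of 0.59 and 0.49. Their second probes gave 0.46 and 0.04 in the same order. Of 25 male-biased genes 2 were higher, Elovl3 and Socs2, and 5 lower. Hsd3b4 and Hsd3b5, male-biased steroid enzymes and close relatives, had log2 ratios of -0.99 and -0.87, and the transporter Slco1a1 had 0.11. Tfrc, the transferrin receptor, was the other lower gene of 19 in iron handling, with 0.651 in HFHFr-FA and 1.59 in HFHFr-N.

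Stress genes were higher in several lists. In the list of p53 targets, Gadd45 genes and immediate early genes 12 of 28 were higher and 2 lower (median 0.70). Of the 28, 2 are bounds that entered through HFHFr-FA alone, and the 26 measured on both arrays had a median of 0.60. Cdkn1a had a signal of 5.18 in HFHFr-FA and 0.238 in HFHFr-N, with HFHFr-NA at 0.408, HFHFr-F at 3.97 and control at 0.618, so the 2 arrays of mice that stayed on the HFHFr diet were the high ones. Gadd45g, a stress-inducible growth arrest gene, had 87.8 in HFHFr-FA and 12.4 in HFHFr-N, and here HFHFr-NA, at 51.0, was second. Atf3, a stress-induced transcription factor, had 1.47 in HFHFr-FA and 0.246 in HFHFr-N, and Egr1, an immediate early transcription factor, 4.79 in HFHFr-FA and 0.929 in HFHFr-N. HFHFr-F had 1.44 for Atf3, close to HFHFr-FA.

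Chaperones of the endoplasmic reticulum leaned higher as a list, with 5 of 31 higher, 0 lower, 28 above 0 and a median of 0.35. Creld2 had 101 in HFHFr-FA and 30.6 in HFHFr-N, with HFHFr-NA at 28.0, HFHFr-F at 30.5 and control at 52.3. Derl3, of the machinery that removes misfolded proteins, had 2.39 in HFHFr-FA and 0.764 in HFHFr-N, and the secreted factor Manf 25.2 in HFHFr-FA and 11.6 in HFHFr-N. HFHFr-FA was the highest array for all 3 of these. Heat shock chaperones had 3 of 24 higher, 0 lower and a median of 0.30, led by Hspa1a (1.61 in HFHFr-FA, 0.498 in HFHFr-N) and its near-identical copy Hspa1b. In the amino acid response and serine synthesis list 6 of 22 were higher and 1 lower, with 13 above 0, 9 below 0 and a median of 0.18. The higher ones include Atf3 and Fgf21, and the lower one is Vldlr, all 3 also members of other lists given here. Chac1, which degrades glutathione, had 3.70 in HFHFr-FA and 1.46 in HFHFr-N. Asns, asparagine synthetase, did not reach 2-fold, with 0.519 in HFHFr-FA and 0.396 in HFHFr-N, where HFHFr-NA had 3.48 and control 2.42.

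Some inflammation genes were higher in HFHFr-FA, among them those of acute phase proteins and chemokines. In the acute phase list 8 of 31 lay 2-fold higher and 0 lower (median 0.52). Saa1, Saa2 and Saa3 are serum amyloids, secreted by the liver in the acute phase. Saa1 had a signal of 569 in HFHFr-FA and 118 in HFHFr-N, with HFHFr-NA at 175, HFHFr-F at 289 and control at 38.0. Lcn2, lipocalin 2, had 3.59 in HFHFr-FA and 0.419 in HFHFr-N, and it was not well above background in control. Saa2 (log2 ratio 2.42) is a close relative of Saa1, and Saa3 had 2.19. HFHFr-FA was the highest and control the lowest of the 5 arrays for these 4 genes. Of 24 chemokine, cytokine and adhesion genes 11 were higher and 1 lower (median 0.78). Of the 24, 5 are bounds, with 23 genes well above background in HFHFr-FA and 20 in HFHFr-N. The 19 measured on both arrays had a median of 0.83, and the list median lay between 0.43 and 0.83 over the processing settings. Ccl4, a chemokine for T cells and monocytes, had 1.06 in HFHFr-FA and 0.163 in HFHFr-N, and Ccl5 had 8.04 in HFHFr-FA and 1.95 in HFHFr-N. Ccl2, which attracts monocytes, had 0.966 in HFHFr-FA and 0.255 in HFHFr-N, with the highest signal, 1.65, in HFHFr-F. Interferon response genes had 5 of 34 higher and 0 lower, with 12 below 0 and a median of 0.19, led by Oas2, an antiviral sensor (0.478 in HFHFr-FA, 0.151 in HFHFr-N).

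Markers of T and NK cells, neutrophils and macrophages leaned higher beside these genes and those of B and plasma cells did not. The part of these cells in the inflammation lists was not tested. The lean was not particular to immune cells. Of 15 endothelial markers 13 lay above 0 (median 0.41, and 0.32 over the 13 measured on both arrays). Of 9 cholangiocyte markers 7 lay above 0 (median 0.27). Stellate cell markers, given below, also leaned higher, while hepatocyte and erythroid markers leaned lower. Of 11 measured T and NK cell markers 7 were higher and 0 lower (median 1.17). Of these, 3 are bounds that entered through HFHFr-FA alone. The 8 measured on both arrays had a median of 1.21, and quantile normalization after normexp gave 0.47 over the 11. Over the 18 matched markers the summed signal was 12.4 in HFHFr-FA and 4.16 in HFHFr-N, with 11 markers well above background in HFHFr-FA and 8 in HFHFr-N. Cd3g, Cd2 and Cd4 were not well above background on either array. Ccl5, which stands in both lists, gave 8.04 of that sum in HFHFr-FA and 1.95 in HFHFr-N. Cd8b1, a chain of the CD8 co-receptor, had 0.570 in HFHFr-FA and 0.160 in HFHFr-N, and Nkg7, of cytotoxic granules, 0.693 in HFHFr-FA and 0.276 in HFHFr-N. Neutrophil markers had 6 of 11 well above background in HFHFr-FA and 3 in HFHFr-N. Of these 6, 3 are bounds that entered through HFHFr-FA alone. The summed signal of the list was 11.7 in HFHFr-FA and 3.91 in HFHFr-N. S100a9, a calcium-binding protein of neutrophils and monocytes, gave 10.1 of that sum in HFHFr-FA and 3.34 in HFHFr-N. The neutrophil granule genes Elane, Ngp and Ltf were not well above background on either array. Of 6 measured B and plasma cell markers 0 reached 2-fold and 5 lay below 0 (median -0.26), with a summed signal of 4.38 in HFHFr-FA and 4.49 in HFHFr-N.

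All 18 Kupffer cell and macrophage markers were well above background on both arrays. Their summed signal was 262 in HFHFr-FA, 196 in HFHFr-N and 276 in HFHFr-F, the highest array. Of the 18, 2 were higher and 0 lower, 16 lay above 0, and the median was 0.46. Marco, a scavenger receptor, had 33.7 in HFHFr-FA, 14.3 in HFHFr-N and 37.7 in HFHFr-F. Cd68, a lysosomal protein of macrophages, had 0.930 in HFHFr-FA, 0.444 in HFHFr-N and 1.01 in HFHFr-F. Class II antigen presentation genes had 3 of 8 higher and 0 lower (median 0.92), including Cd74, the invariant chain, with 13.0 in HFHFr-FA and 6.46 in HFHFr-N. Of 13 markers of lipid-associated macrophages, cells that gather in fatty liver, 6 were higher and 0 lower (median 0.64). Of the 13, 1 is a bound, and the 12 measured on both arrays had a median of 0.54. Trem2, a lipid-sensing receptor of these cells, had 2.21 in HFHFr-FA and 0.649 in HFHFr-N, with 5.81 in HFHFr-F and 0.312 in control, and Itgax had 0.806 in HFHFr-FA and 0.209 in HFHFr-N. Spp1, osteopontin, was an exception, with 9.98 in HFHFr-FA and 10.1 in HFHFr-N, while HFHFr-F had 60.4, from a spot that lay beside other bright spots of that array. For these 3 genes the HFHFr-F array was the highest.

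Of 31 matrix genes 4 were higher and 0 lower (median 0.63). Of the 31, 7 are bounds, and the 24 measured on both arrays had a median of 0.47. Col1a1, a chain of type I collagen, had a log2 ratio of 1.43, with 0.410 in HFHFr-N, 3.64 in HFHFr-F and 0.209 in control. Postn, periostin, had 1.80 in HFHFr-FA and 0.651 in HFHFr-N. Eln, elastin, was counted higher, but its spot lay beside other bright spots of HFHFr-FA. Stellate cell markers, the cells that make much of this matrix, had 1 of 17 higher and 0 lower with a median of 0.53, and their summed signal was 136 in HFHFr-FA and 113 in HFHFr-N. The higher one was Pdgfrb, a growth factor receptor (2.44 in HFHFr-FA, 1.15 in HFHFr-N). The part of these cells in the matrix list was not tested.

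**Figure D4:**
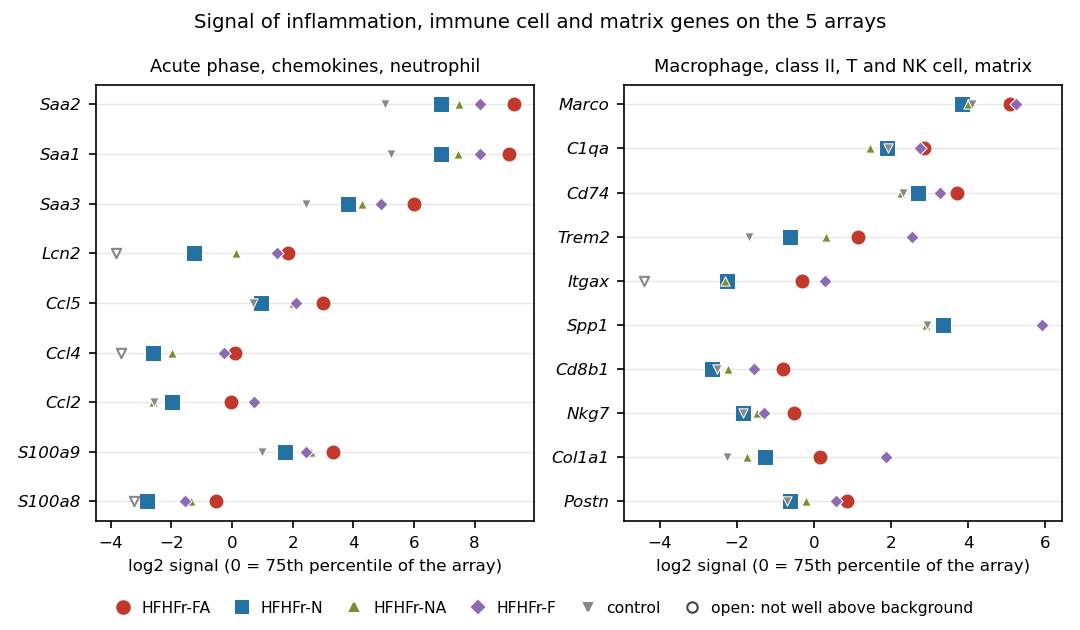
Signal of acute phase, chemokine and neutrophil genes (left) and of macrophage, class II, T and NK cell and matrix genes (right) on the 5 arrays, as log2 of the multiple of each array's 75th percentile, with open points where the probe was not well above background. HFHFr-FA lies right of HFHFr-N for each gene shown except Spp1. HFHFr-F is the highest array for Ccl2, Marco, Trem2, Itgax, Col1a1 and Spp1. The Spp1 spot on HFHFr-F lay beside other bright spots.

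Hepatocyte markers and the respiratory chain leaned the other way by small amounts. Of 11 hepatocyte markers 0 reached 2-fold, 9 lay below 0 and the median was -0.25. Alb, albumin, had 1258 in HFHFr-FA and 1689 in HFHFr-N. Of 42 oxidative phosphorylation genes 0 reached 2-fold and 41 lay below 0, with a median of -0.24 and Cox6c, a subunit of cytochrome c oxidase, lowest at -0.52. After cyclic loess, which removes trends of the ratio with signal, these 2 medians were -0.02 for hepatocyte markers and -0.03 for oxidative phosphorylation, where the median of all genes was 0.02. Urea cycle and amino acid catabolism genes had 0 of 40 past 2-fold and a median of -0.08. Pericentral hepatocyte markers, of the zone around the central vein, had a median of -0.37, with 9 of 15 below 0 and 0 past 2-fold. Of these, 1 is a bound, and the 14 measured on both arrays had a median of -0.28. Periportal markers had a median of -0.05, with 11 of 15 below 0 and 1 lower by 2-fold. Of 7 measured erythroid markers 6 lay below 0, with a summed signal of 116 in HFHFr-FA and 166 in HFHFr-N. Of 27 cell cycle and replication genes 2 were higher and 2 lower: the proliferation marker Mki67 had 0.324 in HFHFr-FA and 0.158 in HFHFr-N, and Ccne1, cyclin E1, had 0.242 in HFHFr-FA and 0.931 in HFHFr-N.

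**Figure D5:**
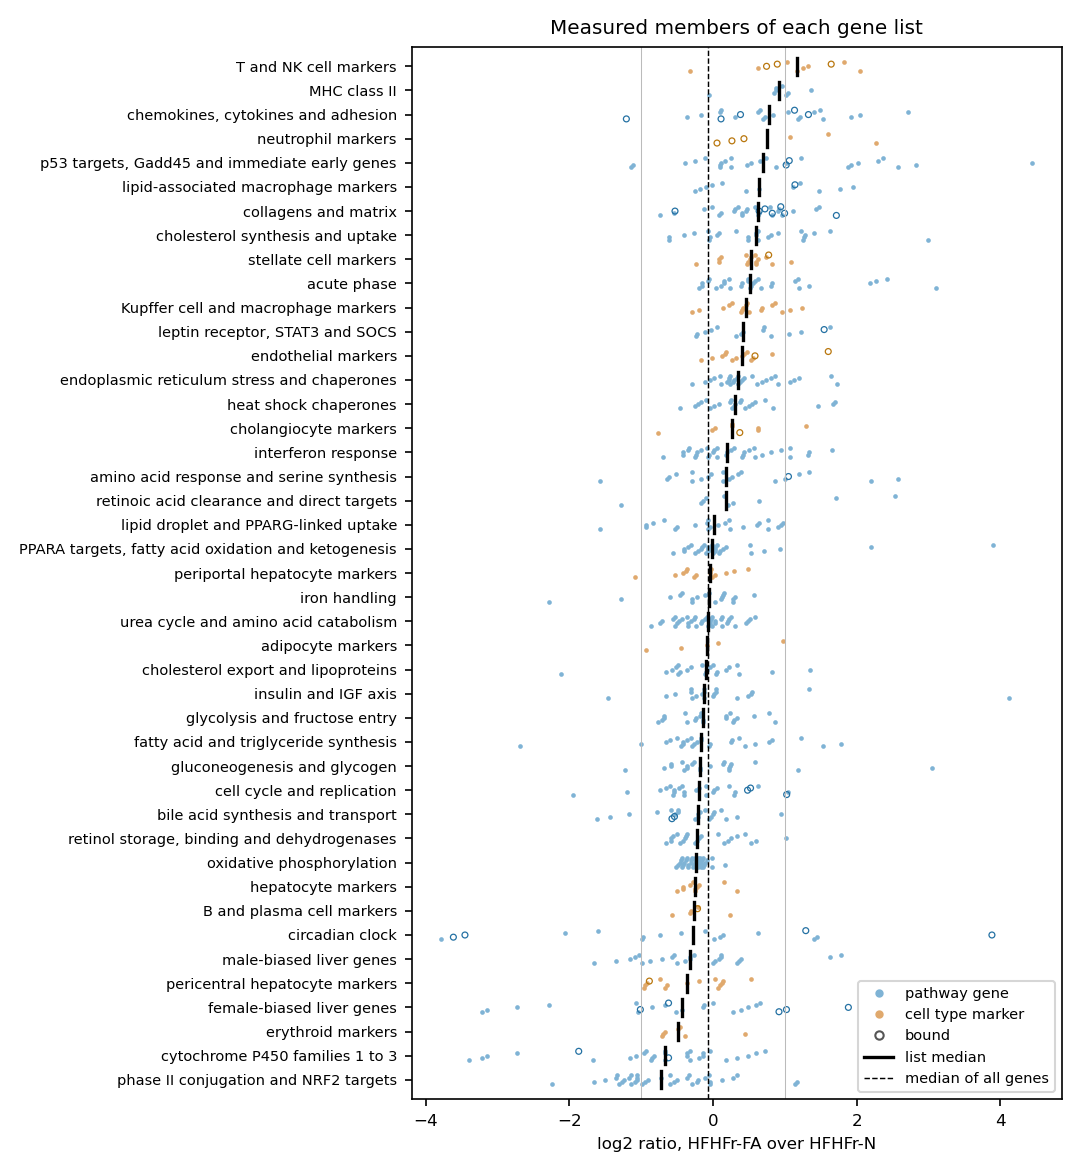
Log2 ratio of HFHFr-FA over HFHFr-N of every measured member of the 43 gene lists with at least 5 measured members, sorted by median (bars), with the median of all genes dashed. Blue points are pathway genes, orange points cell type markers and open points bounds. The T and NK cell, MHC class II and chemokine lists lie at the top and the 2 xenobiotic metabolism lists at the bottom, with the B and plasma cell list in the lower part.

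The remaining genes with the highest and lowest ratios were of mixed function. Eif4ebp3, an inhibitor of translation initiation, had 31.3 in HFHFr-FA and 4.12 in HFHFr-N, with HFHFr-NA at 19.8, HFHFr-F at 5.18 and control at 13.8, so the 2 arrays of mice given retinoic acid were the highest, and a second probe gave 2.89 against 2.93. Scara5, a scavenger receptor that binds ferritin, was at least 8.20-fold higher and Fam222a at least 9.39-fold higher. Among the lowest, Lrtm1 had 0.204 in HFHFr-FA and 1.56 in HFHFr-N, and Clec2h, of the C-type lectin family, 0.225 in HFHFr-FA and 1.46 in HFHFr-N. For Lrtm1 the HFHFr-FA array stood alone, with 0.825 to 1.67 on the other 4.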

How the data were processed

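RNA pooled from 5 mice per group was labelled with Cy3 and hybridised to 1 whole mouse genome array per group, per the labels. Feature Extraction 10.5.1.1 gave the processed intensity, background-subtracted within each array, per the file headers, which give mm9 probe positions. The deposited value table holds a linear ratio of that intensity to 1 constant per array, at about the 75th percentile of all spots, as a check against the scanner values showed. It is not centred, its direction is that of the signal, and the reason for that constant is not stated in the labels or headers. Its column medians were 0.0721 in HFHFr-FA and 0.0738 in HFHFr-N.

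From log2 of the processed intensity each array's 75th percentile (control spots left out) was subtracted, and spots of one probe were averaged without outlier spots (96 on HFHFr-FA and 60 on HFHFr-N). No spot was saturated. RefSeq accessions (GRCm38.p6, names only) named 24844 probes, and 16330 kept the file's name. Among 28632 gene names 8582 were on several probes; the probe with the highest mean over the 5 arrays stood for the gene. Genes not well above background on either array were left out. With 1 array well above background, the measured signal was divided by the dim array's own signal or, where higher, by its floor (the lowest signal there among probes well above background), and this is a bound, set to 0 on the log2 scale if under 1-fold. Genes were counted at 2-fold. A spot was called beside bright spots when it and at least 1 other within 3 rows and 2 columns stood at least 1.5 log2 units above every other array. This window was set after such spots were seen.

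There were 31 pathway lists and 14 cell type lists, and 958 of 977 listed symbols matched a gene name. Genes were named by a rule: the 12 highest and 12 lowest ratios among symbols that both arrays measured, clones and accessions left out, the 3 highest and lowest bounds, up to 4 members with the largest ratio of each list, and 31 fixed genes. The text gives part of them, and some are not reported here. The members and lists were chosen with earlier results of these data known. Ratios were checked on simulated data. Python 3.11.15, pandas 2.3.3, R 4.3.3 and limma 3.58.1 were used.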

Additional observations from a re-analysis of the deposited data

How the results depend on the processing

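The counts of 552 higher and 365 lower genes stayed within 1.5 times under median centring, cyclic loess, both-array detection, the mean over all probes of a gene, the deposited value table and the removal of genes beside bright spots. Normexp background correction (offset 50) with quantile normalization, which draws dim signals together, gave 154 higher and 92 lower genes, of which 143 and 91 were among the main ones. Without a detection filter 1248 genes were higher and 1444 lower, and the higher share of 2-fold genes was 46.4%, against 60.2%. The number of lists with a median at least 0.5 away from that of all genes was 13, and 5 with normexp and quantile normalization. The number of the 190 named genes past 2-fold was 106 and lay between 77 and 111 under the alternatives. No list median past 0.5 and no named gene past 2-fold changed sign under these alternatives. Among named genes under 2-fold, Hk1 (0.78) and Tek (0.55) were -0.01 and -0.08 as means over all their probes. Signs also differed between settings for Igf1 (-0.13 to 0.08), Slco1a1 (-0.04 to 0.21), Spp1 (-0.02 to 0.12), Cfd (-0.09 to 0.09) and Cel (-0.14 to 0.32). List medians near 0 did change sign: those of the glycolysis, gluconeogenesis, urea cycle, insulin axis, periportal, lipoprotein and adipocyte lists were below 0 and lay above 0 after cyclic loess, at 0.06, 0.03, 0.09, 0.07, 0.10, 0.10 and 0.09. The PPARA list (-0.01) reached 0.16 there. Without a detection filter the list of retinoic acid clearance and direct targets (0.18) was -0.08 and the lipid droplet list (0.01) was -0.05, and as a mean over all probes the iron list (-0.06) was 0.03. Signs also differed for the PPARA, urea cycle and periportal lists under quantile normalization after normexp, at 0.09, 0.02 and 0.02, and for the PPARA list under median centring (0.02) and as a mean over all probes (0.01). A slide block could not be fitted, because HFHFr-FA was the only array of its slide. No paired analysis was possible because each group is 1 array. Depth is set here by signal over background: genes with a signal near the lowest measured one, 0.0755 on HFHFr-FA and 0.0775 on HFHFr-N, have only a bound or no ratio.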
